A study of Rattus norvegicus with 18 samples.

Results

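The 10 genes described here, Acta2, Tagln, Des, Vim, Pdgfra, Pdgfrb, Ngfr, Lrat, Rgs5 and Cthrc1, mark hepatic stellate cells and the myofibroblasts that derive from them. They were chosen by name. Each gene was read from the probe whose RefSeq accession belongs to it, and Pdgfrb and Lrat, which had more than 1 probe, were read from the brighter one, by its mean over the 18 arrays. They are 10 of the 15636 genes that the probes could be matched to, and all 10 were among the 10908 genes tested, those whose signal stood clear of background (by the scanner software's criterion, "well above background") throughout some group of 3. Cthrc1 passed that filter only through the CCl4 groups, and Ngfr only through the DEN and CCl4 groups of day 28, so a difference of these genes between groups is in part a condition of their being tested.

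The arrays measured total liver RNA of 18 male F344 rats, 1 rat per array and 3 rats in each of 6 groups. The rats were bought at 5 weeks of age and acclimatized for a week. Treated rats were given oral doses each day for 28 or 84 days, either with DEN at 4 mg/kg in saline or with CCl4 at 100 mg/kg in corn oil, each in 5 mL/kg. Control rats of both days received the basal diet that all groups ate. The treatment protocol calls these controls untreated, whereas the sample titles call them vehicle. Since both solvents differ and neither is stated to have been given to the controls, compound and solvent cannot be told apart. DEN (diethylnitrosamine) is a liver carcinogen that damages DNA after activation in hepatocytes, and CCl4 (carbon tetrachloride) is a liver toxicant that causes fibrosis on repeated dosing. The series is titled for genes that are lower in the liver with non-genotoxic hepatocarcinogens, of which CCl4 is one and DEN, which is genotoxic, is not. Its design text mentions 28 days only. The doses of the 2 compounds differ, so CCl4 against DEN compares these regimens.

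Stellate cells lie between hepatocytes and the sinusoidal endothelium. In the resting liver they store vitamin A as retinyl esters, which the enzyme encoded by Lrat makes. After injury they lose these stores, divide in response to platelet-derived growth factor, take on contractile filaments and secrete collagen: they become myofibroblasts, the main source of scar matrix. Desmin and vimentin filaments are found in resting and activated cells, whereas smooth muscle actin is the usual sign of activation.

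All levels below are log2 processed signals minus the 75th percentile of the same array, so that 0 is that percentile and negative levels are dimmer. That percentile lay between 169.8 and 325.5 signal units, and between 47.2% and 57.0% of probes passed the background criterion, depending on the array. The 10 hepatocyte markers had a mean level of 6.90 to 8.38 on every array, so the RNA of all groups carried the transcripts of its labelled tissue. The arrays lay on 3 slides: the first held all arrays of day 28 except CCl4 rat 3, the second held that array, all control and DEN arrays of day 84 and CCl4 rat 1 of day 84, and the third held CCl4 rats 2 and 3 of day 84. On the first principal component of all tested genes, CCl4 rat 2 of day 28 had a score of 75.5, whereas rats 1 and 3 of its group had 38.1 and 25.5. Among all genes tested, the share of calls that were higher in treated rats was 52.1% for DEN and 43.7% for CCl4 at day 28, and 41.0% for DEN and 43.5% for CCl4 at day 84. Scaling to the spike-in controls instead turned these shares to 98.1%, 94.2%, 96.2% and 89.0%, and moved the median difference of all genes to 0.36, 0.74, 0.63 and 0.45, so each difference below is relative to the bulk of the transcripts. With quantile normalization the shares were 65.0%, 52.7%, 49% and 51%.

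CCl4 raised most of these genes at both days. In limma fits over all genes, with Benjamini-Hochberg adjusted p-values and a threshold of 0.05, 7 of 10 were higher than in controls at day 28 (26.1% of all genes tested were called higher) and 8 of 10 at day 84 (28.0% of all genes), and none was lower. The median log2 difference of the 10 genes was 1.78 at both days, whereas the medians of all genes were -0.06 and -0.10. The same 7 and 8 genes were those in which all 3 CCl4 rats lay above all 3 controls, which held for 26.1% of all genes at day 28 and 31.0% at day 84. Both counts include Cthrc1, which was tested only through the CCl4 groups, so its call is in part a condition of the test. DEN called none of them at day 28 (15.0% of all genes called), although 1 had an unadjusted p under 0.05. At day 84 DEN raised 4, Des, Vim, Rgs5 and Tagln (21.6% of all genes called higher), and lowered 1, Pdgfrb (31.1% called lower). By ranges, 3 genes at day 28 (Vim, Pdgfra and Rgs5) and 5 at day 84 (Des, Vim, Lrat, Rgs5 and Tagln) had all DEN rats above all controls, as did 17.0% and 26.3% of all genes, and 1, Pdgfrb, had them below at both days (25.8% and 38.6% of all genes). The medians with DEN were 0.37 (0.35 with dim genes at their bounds) at day 28 and 0.65 at day 84, and those of all genes were -0.04 and -0.08. In tissue RNA, more cells of a type and more RNA per cell cannot be told apart.

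**Figure D1:**
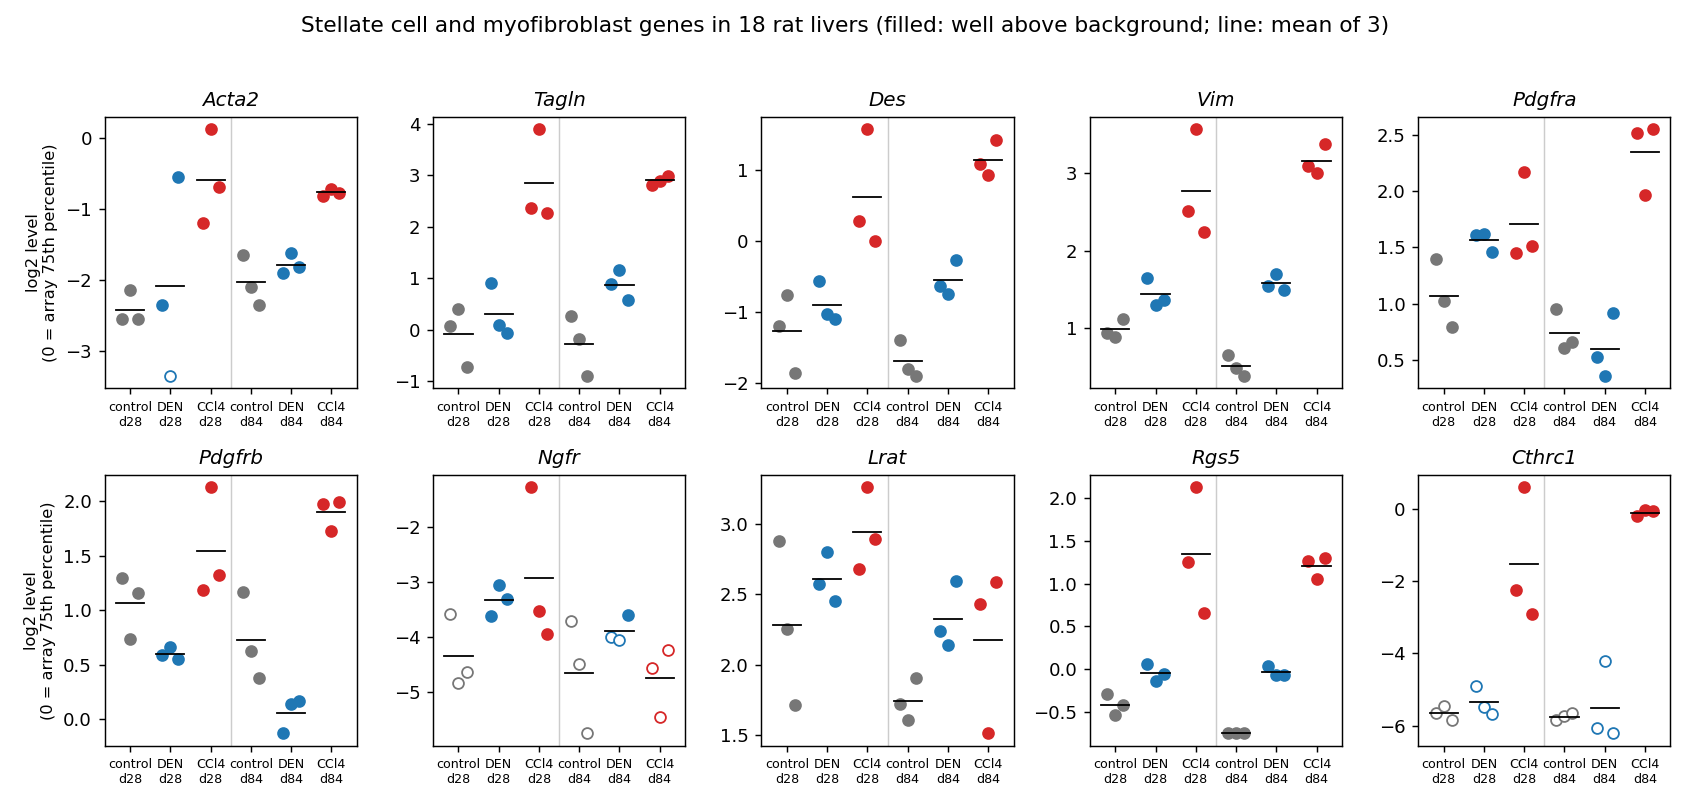
Log2 level (0 is the array's 75th percentile) of the 10 genes in each rat, by treatment and day. Each point is 1 rat, filled where the probe was well above background on that array and open where it was not, and the black line is the mean of 3 rats. The 6 CCl4 rats lie above all other rats for Tagln, Des, Vim, Rgs5 and Cthrc1, and CCl4 rat 2 of day 28 is the highest of its group in 9 of 10 panels.

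Acta2 encodes alpha smooth muscle actin, the contractile actin of smooth muscle and of myofibroblasts. At day 28 its log2 level was -2.56, -2.15 and -2.56 in the controls, -2.35, -3.36 and -0.56 with DEN, and -1.21, 0.12 and -0.70 with CCl4. At day 84 it was -1.66, -2.11 and -2.35 in the controls, -1.91, -1.63 and -1.82 with DEN, and -0.82, -0.72 and -0.78 with CCl4. The CCl4 rats lay above the controls at both days without overlap, and the 3 CCl4 rats of day 84 differed from each other by no more than 0.10. The DEN rats of day 28 were the most scattered group: rat 2 was below every control and not well above background, and rat 3 was as high as the CCl4 rats.

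The rise of Acta2 with CCl4 was 1.83 ± 0.50 (log2 difference ± SE of the limma fit, 3 rats against 3, as in all differences below; adjusted p = 0.00647), a 3.54-fold difference, at day 28, and 1.27 ± 0.50 (adjusted p = 0.0396) at day 84. The day 84 call was a narrow one. It was lost without control rat 2 or 3 or without any of the CCl4 rats (1.11 to 1.29, adjusted p = 0.0735 to 0.113), with slide as a block (adjusted p = 0.200), with a replicate block (adjusted p = 0.0529), with median scaling (adjusted p = 0.0511) and when dim probes stayed in (adjusted p = 0.0516). Acta2 did not pass the test with DEN at either day (0.33 ± 0.50 and 0.25 ± 0.50, adjusted p = 0.683 and 0.695). Without DEN rat 3 of day 28 the first of these values turned to -0.43. CCl4 exceeded DEN at day 28 by 1.49 ± 0.50 (adjusted p = 0.0265), with overlapping groups. That call was lost without DEN rat 1 or 2 or CCl4 rat 2 of day 28 (0.86 to 1.36, adjusted p = 0.0774 to 0.136) with slide as a block (1.54, adjusted p = 0.0538) and in a fit of only the groups compared (adjusted p = 0.173).

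Tagln encodes transgelin (SM22), an actin-binding protein of smooth muscle and activated stellate cells. Its log2 level at day 28 was 0.06, 0.40 and -0.72 in the controls, 0.90, 0.08 and -0.06 with DEN, and 2.35, 3.89 and 2.27 with CCl4. Among the rats of day 84 it was 0.26, -0.18 and -0.90 in the controls, 0.88, 1.15 and 0.57 with DEN, and 2.80, 2.90 and 2.99 with CCl4. The lowest CCl4 rat of either day was higher than every rat of the other 4 groups. CCl4 raised Tagln by 2.93 ± 0.42 (7.60-fold, adjusted p = 5.26e-05) at day 28 and by 3.17 ± 0.42 (8.99-fold, adjusted p = 2.26e-05) at day 84. At day 84, 2.42% of all genes tested had a larger difference. DEN raised it by 1.14 ± 0.42 (adjusted p = 0.0356) at day 84. The call was lost without control rat 2 or 3 or DEN rat 1 or 2 (0.83 to 1.19, adjusted p = 0.0650 to 0.148). It was also lost when dim probes stayed in (adjusted p = 0.0511), and without CCl4 rat 3 of day 28 and CCl4 rats 2 and 3 of day 84. That last fit left the value at 1.14. All control and DEN arrays of day 84 lay on 1 slide, so it does not test the slide.

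Des encodes desmin, the intermediate filament of muscle that also marks rat stellate cells. At day 28 the log2 level was -1.20, -0.75 and -1.85 in the controls, -0.57, -1.03 and -1.10 with DEN, and 0.27, 1.57 and -0.01 with CCl4. At day 84 it was -1.39, -1.80 and -1.90 in the controls, -0.64, -0.74 and -0.27 with DEN, and 1.08, 0.93 and 1.42 with CCl4. The 3 groups of day 84 did not overlap, with DEN between control and CCl4. Des rose with CCl4 by 1.88 ± 0.35 (3.68-fold, adjusted p = 0.000413) at day 28 and by 2.84 ± 0.35 (7.15-fold, adjusted p = 1.24e-05) at day 84. The rise with DEN at day 84 was 1.14 ± 0.35 (2.21-fold, adjusted p = 0.0145). It did not pass (adjusted p = 0.0512) without DEN rat 3 and was 0.50 (adjusted p = 0.144) with normexp background correction.

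Vim encodes vimentin, the intermediate filament of mesenchymal cells in general, which macrophages, endothelium and lymphocytes also make. Its log2 level was 0.94, 0.88 and 1.12 in the controls of day 28, 1.65, 1.29 and 1.35 with DEN, and 2.52, 3.57 and 2.25 with CCl4. Among the rats of day 84 it was 0.65, 0.49 and 0.38 in the controls, 1.54, 1.70 and 1.50 with DEN, and 3.10, 3.00 and 3.38 with CCl4. At each day the order was control, DEN, CCl4 with no overlap. The DEN groups of both days overlapped each other, as did the CCl4 groups. Vim rose by 1.80 ± 0.24 (3.48-fold, adjusted p = 3.13e-05) with CCl4 at day 28, by 2.66 ± 0.24 (6.31-fold, adjusted p = 1.00e-06) with CCl4 at day 84 and by 1.07 ± 0.24 (2.11-fold, adjusted p = 0.00236) with DEN at day 84. At day 28 the difference with DEN, 0.45 ± 0.24, did not pass the test (adjusted p = 0.219).

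The promoters of the smooth muscle genes are known for CArG boxes, the sites at which serum response factor (SRF) binds. RefSeq windows on the rat assembly GRCr8, from 250 bases before to 50 after the transcript start, matched 6 of the 10 genes: Acta2, Des, Vim, Pdgfra, Lrat and Rgs5. Tagln, Cthrc1, Pdgfrb and Ngfr had no entry. The windows of the actin gene, of both filament genes and of Lrat, which did not pass the test with either compound, are printed 5′ to 3′ on the strand of the gene. Capitals mark a CArG box with 1 departure, a TATAAA or a CANNTG (the E-box core).
Acta2, chr1:241172454-241172753, minus strand: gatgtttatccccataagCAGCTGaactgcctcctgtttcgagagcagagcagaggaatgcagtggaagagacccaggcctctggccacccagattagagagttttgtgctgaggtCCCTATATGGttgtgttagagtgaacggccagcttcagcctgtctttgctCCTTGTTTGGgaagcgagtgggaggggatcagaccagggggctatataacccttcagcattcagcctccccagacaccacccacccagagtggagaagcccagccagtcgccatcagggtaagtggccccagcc
Des, chr9:84299376-84299675, plus strand: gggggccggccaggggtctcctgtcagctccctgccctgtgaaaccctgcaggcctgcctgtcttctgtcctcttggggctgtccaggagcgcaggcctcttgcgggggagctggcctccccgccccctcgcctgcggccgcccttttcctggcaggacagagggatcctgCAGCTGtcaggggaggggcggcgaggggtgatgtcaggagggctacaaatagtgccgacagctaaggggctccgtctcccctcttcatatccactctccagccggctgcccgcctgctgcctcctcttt
Vim, chr17:81577011-81577310, plus strand: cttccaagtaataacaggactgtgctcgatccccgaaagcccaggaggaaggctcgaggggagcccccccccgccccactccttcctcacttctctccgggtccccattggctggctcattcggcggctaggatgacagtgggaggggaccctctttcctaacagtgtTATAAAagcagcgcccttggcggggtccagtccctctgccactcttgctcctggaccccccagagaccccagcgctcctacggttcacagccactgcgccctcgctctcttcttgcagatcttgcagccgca
Lrat, chr2:170571163-170571462, minus strand: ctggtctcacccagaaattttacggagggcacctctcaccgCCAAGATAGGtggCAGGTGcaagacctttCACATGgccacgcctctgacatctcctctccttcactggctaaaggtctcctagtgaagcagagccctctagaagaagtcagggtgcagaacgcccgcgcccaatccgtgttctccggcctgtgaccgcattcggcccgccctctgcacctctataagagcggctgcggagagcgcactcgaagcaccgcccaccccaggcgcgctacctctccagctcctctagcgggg

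The Acta2 window held 2 CArG boxes with 1 departure, starting 134 and 84 bases before the transcript start, and the Lrat window held 1, starting 209 bases before it. No member window held an exact CArG box. Over all 33469 windows of the table, searched on both strands, 1.64% held an exact CArG box and 9.42% held one with 1 departure or fewer. TATAAA stood 82 bases before the start of Vim (14.2% of all windows held it). CANNTG occurred in the windows of Acta2, Lrat, Des and Pdgfra, as it did in 72.1% of all windows. CAGAC, the core of the SMAD element, occurred in Acta2, Rgs5 and Pdgfra (50.1% of all windows), and CATTCC, the MCAT element, in Acta2 (14.2%). GGGCGG, the GC box, occurred in Lrat, Des, Rgs5 and Vim (33.1%). A GGGCGG or CAGAC match may share bases with another motif, and a match describes letters, not binding.

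**Figure D2:**
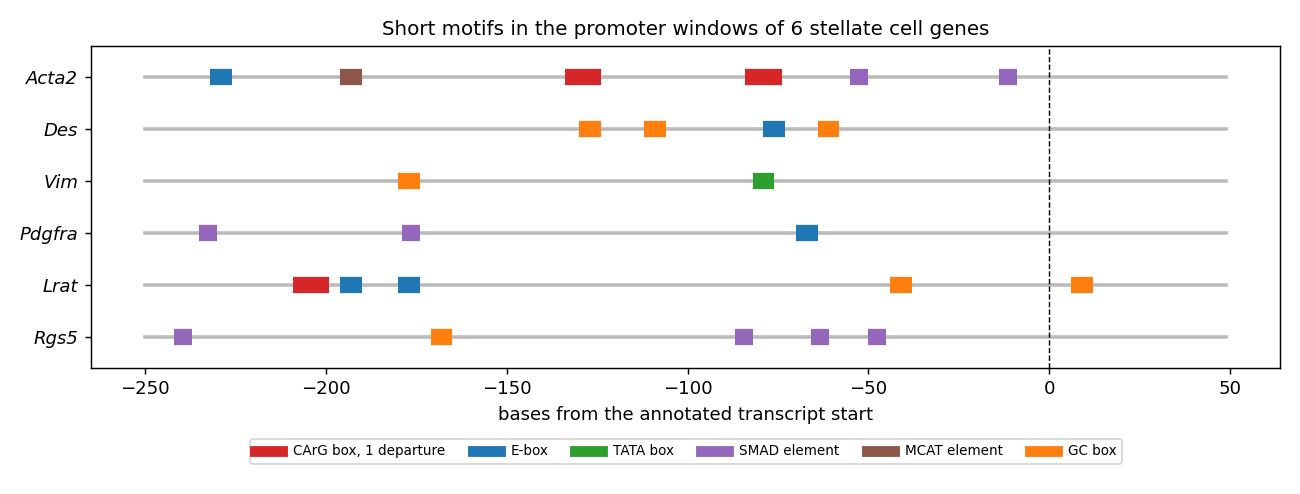
Matches to 6 short motifs in the promoter windows of Acta2, Des, Vim, Pdgfra, Lrat and Rgs5, by distance in bases from the annotated transcript start (dashed line). Grey lines are the windows and coloured blocks the matches. The 2 CArG boxes with 1 departure in Acta2 start 134 and 84 bases before the start.

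Other genes of the contractile apparatus and known SRF targets were less uniform than Acta2 and Tagln. Of 15 tested, CCl4 raised 9 and lowered 2 at day 28 (median 0.68) and raised 8 and lowered 1 at day 84 (median 0.28). Of all genes, CCl4 raised 26.1% and lowered 33.6% at day 28, and raised 28.0% and lowered 36.3% at day 84. Flna, which encodes the actin cross-linker filamin A, rose by 1.34 ± 0.19 (adjusted p = 4.88e-05) at day 28 and 1.62 ± 0.19 (adjusted p = 7.96e-06) at day 84. Myl9, a regulatory myosin light chain, rose by 1.16 ± 0.22 (adjusted p = 0.000466) and 1.62 ± 0.22 (adjusted p = 2.70e-05). Tpm1, a tropomyosin, rose by 0.95 ± 0.13 (adjusted p = 2.69e-05) and 1.07 ± 0.13 (adjusted p = 8.40e-06). DEN raised none and lowered 1 of the 15 at day 28 (15.0% of all genes called). At day 84 it raised 3 and lowered 5 (21.6% and 31.1% of all genes), with a median of -0.11 that turned to 0.60 under spike-in scaling. Tpm1 and Flna were among those that DEN raised at day 84, by 0.74 ± 0.13 (adjusted p = 0.000314) and 0.89 ± 0.19 (adjusted p = 0.00167).

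The scattered Acta2 levels of the DEN rats of day 28 can be set beside 3 genes of smooth muscle, picked after their values were seen. Rat 3, in which Acta2 was high at -0.56, had the lowest level of its group for Actg2, the enteric smooth muscle actin (0.13, -0.63 and -0.90 in rats 1 to 3), for Myh11, the smooth muscle myosin heavy chain (-0.91, -1.58 and -1.79), and for Tpm2, a tropomyosin (2.61, 2.05 and 1.81). Myh11 did not pass the test with CCl4 (0.02 ± 0.41 at day 28 and -0.01 ± 0.41 at day 84, adjusted p = 0.972 and 0.986). Its levels with CCl4, -0.61, -1.18 and -0.96 at day 28 and -0.17, -1.36 and -1.01 at day 84, overlapped those of the controls at both days.

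The other intermediate filament genes split. Of 8 tested, CCl4 raised 4 and lowered 2 at day 28 (26.1% and 33.6% of all genes). It raised 6 and lowered 2 at day 84 (28.0% and 36.3% of all genes), and DEN raised 4 and lowered 2 at day 84 (21.6% and 31.1%). Nes, the nestin gene of progenitor and activated stellate cells, rose with CCl4 by 1.38 ± 0.21 (adjusted p = 8.26e-05) and 1.02 ± 0.21 (adjusted p = 0.000779). The second of these calls was lost with slide as a block (0.72, adjusted p = 0.0585). With DEN Nes stood at -0.10 ± 0.21 and 0.08 ± 0.21 (adjusted p = 0.778 and 0.780). The epithelial keratin genes moved too: Krt8 rose by 1.73 ± 0.23 (adjusted p = 2.64e-05) with CCl4 at day 28 and by 1.28 ± 0.23 (adjusted p = 0.000467) with DEN at day 84, and Krt19, of bile ducts, by 2.66 ± 0.42 (adjusted p = 8.99e-05) with CCl4 and 2.64 ± 0.42 (adjusted p = 0.000183) with DEN at day 84.

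The receptors for platelet-derived growth factor, the main growth signal of stellate cells, separated the compounds at day 84. Pdgfra encodes the alpha receptor. At day 28 its log2 level was 1.40, 1.02 and 0.79 in the controls, 1.61, 1.61 and 1.46 with DEN, and 1.45, 2.17 and 1.51 with CCl4. At day 84 it was 0.96, 0.61 and 0.66 in the controls, 0.53, 0.36 and 0.91 with DEN, and 2.52, 1.96 and 2.54 with CCl4. The DEN and CCl4 rats of day 28 overlapped and both groups lay above the controls. At day 84 the DEN rats overlapped the controls and the CCl4 rats stood above both. Pdgfra rose with CCl4 by 1.60 ± 0.22 (3.03-fold, adjusted p = 2.66e-05) at day 84 and by 0.64 ± 0.22 (1.55-fold, adjusted p = 0.0215) at day 28. The day 28 call was lost without CCl4 rat 2 (0.41, adjusted p = 0.120), without control rat 2 (0.61, adjusted p = 0.0556) without control rat 3 (0.50, adjusted p = 0.0928) or in a fit of only the groups compared (adjusted p = 0.0817). With DEN the difference was 0.49 ± 0.22 (adjusted p = 0.140) at day 28 and -0.14 ± 0.22 (adjusted p = 0.609) at day 84.

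Pdgfrb encodes the beta receptor, the one whose gain is used as a sign of activation. Its log2 level at day 28 was 1.29, 0.74 and 1.15 in the controls, 0.59, 0.66 and 0.55 with DEN, and 1.19, 2.13 and 1.32 with CCl4. Among the rats of day 84 it was 1.17, 0.63 and 0.38 in the controls, -0.13, 0.14 and 0.17 with DEN, and 1.97, 1.73 and 2.00 with CCl4. At both days every DEN rat lay below every control, the reverse of CCl4 at day 84. With CCl4 Pdgfrb rose by 1.17 ± 0.23 (2.25-fold, adjusted p = 0.000580) at day 84, and the 0.48 ± 0.23 of day 28 did not pass the test (adjusted p = 0.0885). Without CCl4 rat 1 of day 28 it did (0.66, adjusted p = 0.0358), whereas without CCl4 rat 2, the highest of the group, the difference was 0.19 (adjusted p = 0.449).

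With DEN, Pdgfrb fell at day 84, by 0.66 ± 0.23 on the log2 scale (adjusted p = 0.0281), and stood at -0.46 ± 0.23 (adjusted p = 0.193) at day 28. A further probe of the gene gave -0.61 (adjusted p = 0.0633) for DEN at day 84, and spike-in scaling turned the value to 0.04 (adjusted p = 0.910). The call was also lost without DEN rat 1 (-0.57, adjusted p = 0.0963), DEN rat 2 (-0.71, adjusted p = 0.0508) or control rat 1 (-0.44, adjusted p = 0.138). Set directly against DEN, CCl4 gave a Pdgfrb level 0.94 ± 0.23 higher (adjusted p = 0.00487) at day 28 and 1.84 ± 0.23 higher (3.57-fold, adjusted p = 6.70e-05) at day 84.

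The ligands of these receptors were tested in 3 of 4 cases, since Pdgfb was not well above background in any whole group. Pdgfa rose with CCl4 by 1.14 ± 0.16 (adjusted p = 3.52e-05) at day 28 and 1.24 ± 0.16 (adjusted p = 1.41e-05) at day 84, and with DEN by 0.67 ± 0.16 (adjusted p = 0.00274) at day 84. Pdgfc was called only with DEN at day 28 (0.75 ± 0.21, adjusted p = 0.0290), a call lost without DEN rat 1 or 3 or control rat 1 or 2 (0.59 to 0.72, adjusted p = 0.0779 to 0.105) and in a fit of only the groups compared (adjusted p = 0.0523). Normexp background correction turned the value of Pdgfc to -0.013. Pdgfd was at least 1.81-fold higher with CCl4 at day 84 (adjusted p = 0.0400), a call lost with slide as a block (adjusted p = 0.117), with normexp background correction (adjusted p = 0.354), without any of the CCl4 rats, or without control rat 1 or 3 (adjusted p = 0.0716 to 0.118). Pdgfd was well above background on 4 of 18 arrays and was tested only through that CCl4 group, so its difference there is in part a condition of the test.

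Ngfr encodes the p75 neurotrophin receptor, which stellate cells and peripheral glia carry. It was well above background in no control, in all 3 DEN and all 3 CCl4 rats of day 28, in 1 DEN rat of day 84 and in no CCl4 rat of day 84. Its log2 level at day 28 was -3.57, -4.82 and -4.63 in the controls, -3.61, -3.05 and -3.31 with DEN, and -1.27, -3.53 and -3.95 with CCl4. At day 84 it was -3.70, -4.48 and -5.74 in the controls, -3.99, -4.05 and -3.59 with DEN, and -4.55, -5.44 and -4.23 with CCl4. Only CCl4 rat 1 of day 28 stood clear of the other rats. No comparison passed the test: the difference was at least 1.59-fold with CCl4 (adjusted p = 0.0633) and at least 1.20-fold with DEN (adjusted p = 0.283) at day 28. Such a bound sets the mean of the bright group against the lowest signal that is well above background on the arrays of the dim group. With single arrays left out, the fitted CCl4 value of day 28 ran from 0.60 (without CCl4 rat 1) to 1.94 (without CCl4 rat 3). These fitted values use control signals below the background limit. Without CCl4 rat 3 of day 28, which leaves CCl4 arrays of the first slide only, the CCl4 value passed (adjusted p = 0.0206, and 0.0265 with slide as a block), as it did without control rat 1 (adjusted p = 0.0385) and with a replicate block (adjusted p = 0.0462).

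Of 5 other neurotrophin genes tested, CCl4 raised 1 and lowered 2 at each day. Its shares of all genes were 26.1% raised and 33.6% lowered at day 28, and 28.0% and 36.3% at day 84. DEN raised 1 and lowered 1 of the 5 at day 28 (15.0% of all genes called). It raised 1 and lowered 2 at day 84 (21.6% and 31.1% of all genes). Ntf3, the neurotrophin-3 gene, fell with CCl4 by 2.55 ± 0.21 (adjusted p = 4.16e-07) at day 28 and by 2.13 ± 0.21 (adjusted p = 1.48e-06) at day 84. Sort1, which encodes sortilin, a co-receptor of p75, rose with DEN by 2.24 ± 0.15 (adjusted p = 1.41e-07) and with CCl4 by 1.31 ± 0.15 (adjusted p = 7.31e-06) at day 84. The mean level of the 3 Schwann cell markers tested was -2.43 to -2.15 in controls, -2.73 to -2.52 with DEN and -2.62 to -2.33 with CCl4 at day 28, and -3.03 to -2.50, -1.78 to -1.38 and -2.43 to -2.28 at day 84. Their part in the Ngfr levels was not tested.

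Lrat encodes lecithin retinol acyltransferase, the enzyme that esterifies retinol for storage. Its log2 level at day 28 was 2.88, 2.25 and 1.71 in the controls, 2.57, 2.80 and 2.45 with DEN, and 2.68, 3.26 and 2.89 with CCl4. Among the rats of day 84 it was 1.72, 1.61 and 1.91 in the controls, 2.24, 2.14 and 2.59 with DEN, and 2.43, 1.51 and 2.59 with CCl4. Control rat 1 of day 28 was as high as the CCl4 rats, and CCl4 rat 2 of day 84 was the lowest of all 18. None of the differences from controls passed the test: 0.33 ± 0.29 (95% interval -0.30 to 0.95) with DEN and 0.66 ± 0.29 (0.04 to 1.29) with CCl4 at day 28, and 0.58 ± 0.29 (-0.05 to 1.20) and 0.43 ± 0.29 (-0.19 to 1.06) at day 84, with adjusted p = 0.466, 0.0626, 0.109 and 0.207 in the limma fit. At day 84 the intervals leave room for a fall of at most 0.05 with DEN and 0.19 with CCl4. With single arrays left out, the CCl4 difference ran from 0.38 (without control rat 3) to 0.96 at day 28. At day 84 it ran from 0.23 (without CCl4 rat 3) to 0.76. For CCl4 the test was passed without control rat 1 at day 28 (0.96, adjusted p = 0.0111), without CCl4 rat 2 at day 84 (0.76, adjusted p = 0.0252), and at day 28 with the gene's other probe (0.84, adjusted p = 0.0428), quantile normalization (0.76, adjusted p = 0.0426) or normexp background correction (0.77, adjusted p = 0.0201).

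The other genes of retinoid storage and handling split, and most of those called with CCl4 at day 28 were lower. Of 10 tested, CCl4 raised 1 and lowered 7 at day 28 (median -0.63, with 26.1% and 33.6% of all genes). It raised 2 and lowered 4 at day 84 (median -0.40, with 28.0% and 36.3% of all genes), counts not far from these shares. DEN raised 1 and lowered none at day 28 (15.0% of all genes called), and raised 3 and lowered 5 at day 84 (median -0.35, with 21.6% and 31.1% of all genes). Under spike-in scaling the 3 medians given turned to 0.17, 0.15 and 0.35. The mean level of the list was lower with CCl4 at day 28 (3.06 to 3.31 against 3.55 to 3.94 in controls) and higher at day 84 with DEN (3.54 to 3.77) and CCl4 (3.33 to 3.43) than in controls (3.14 to 3.25). At day 84 the mean thus rose although the median differences were below 0. A mean of 10 genes gives weight to single large changes, such as that of Aldh1a1 given below, so it does not show a rise of the whole list. The part of hepatocytes in this list was not tested. Rbp4, the plasma retinol carrier made by hepatocytes, fell with CCl4 by 0.85 ± 0.14 (adjusted p = 0.000125) at day 28 and by 0.59 ± 0.14 (adjusted p = 0.00176) at day 84. Both Rbp4 calls were lost with quantile normalization (-0.024 and -0.0033, adjusted p = 0.803 and 0.973) and with spike-in scaling (-0.054 and -0.044, adjusted p = 0.644 and 0.737). Dhrs3, a retinal reductase, fell with CCl4 by 0.95 ± 0.14 (adjusted p = 4.84e-05) and 0.91 ± 0.14 (adjusted p = 6.02e-05), and the first value was -0.15 (adjusted p = 0.309) under spike-in scaling. Cyp26b1, which breaks down retinoic acid, fell with CCl4 by 2.91 ± 0.35 (adjusted p = 1.09e-05) at day 28 and rose with DEN by 1.32 ± 0.35 (adjusted p = 0.00583) at day 84. Aldh1a1, a retinal dehydrogenase, rose in all 4 treated groups, from 2.37 ± 0.21 (CCl4, day 84, adjusted p = 7.95e-07) to 3.58 ± 0.21 (DEN, day 28, adjusted p = 8.15e-08).

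Among 17 further genes of resting stellate cells, CCl4 raised 8 and lowered 2 at day 28 and raised 5 and lowered 5 at day 84. Of all genes, CCl4 raised 26.1% and lowered 33.6% at day 28, and raised 28.0% and lowered 36.3% at day 84. DEN raised 3 and lowered none at day 28 (15.0% of all genes called). It raised 3 and lowered 4 at day 84 (21.6% and 31.1% of all genes). The counts of day 84 were not far from these shares. Cygb, which encodes the globin of stellate cells, rose by 2.13 ± 0.29 (adjusted p = 2.79e-05) and 3.29 ± 0.29 (adjusted p = 6.29e-07) with CCl4. With DEN it rose by 1.21 ± 0.29 (adjusted p = 0.00302) at day 84, and by 0.97 ± 0.29 (adjusted p = 0.0356) at day 28, which did not pass without any 1 of the 6 arrays (adjusted p = 0.0544 to 0.113), with quantile normalization (adjusted p = 0.0551) or when dim probes stayed in (adjusted p = 0.0604). Dcn, which encodes the proteoglycan decorin, rose by 2.11 ± 0.32 (adjusted p = 8.69e-05) and 3.21 ± 0.32 (adjusted p = 2.22e-06) with CCl4. Reln, the reelin gene, rose with CCl4 at day 28 (0.99 ± 0.23, adjusted p = 0.00207) and stood at -0.04 ± 0.23 (adjusted p = 0.887) at day 84. Hhip, an inhibitor of hedgehog signalling, fell with CCl4 at day 84 by 2.23 ± 0.45 (adjusted p = 0.000626), with 1 of 3 CCl4 rats well above background, and Ecm1, a matrix protein that holds latent TGF-beta inactive, fell by 2.14 ± 0.20 (adjusted p = 1.20e-06).

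Rgs5 encodes a regulator of G protein signalling that marks pericytes, the contractile cells of capillary walls to which stellate cells are counted. At day 28 the log2 level was -0.30, -0.53 and -0.42 in the controls, 0.06, -0.14 and -0.06 with DEN, and 1.25, 2.13 and 0.66 with CCl4. At day 84 it was -0.75, -0.75 and -0.75 in the controls, 0.04, -0.07 and -0.07 with DEN, and 1.26, 1.05 and 1.30 with CCl4. At both days the order was control, DEN, CCl4 without overlap, and the DEN levels of both days were alike within their spread. Rgs5 rose with CCl4 by 1.76 ± 0.24 (3.39-fold, adjusted p = 3.45e-05) and 1.95 ± 0.24 (3.87-fold, adjusted p = 1.21e-05), and with DEN at day 84 by 0.72 ± 0.24 (1.64-fold, adjusted p = 0.0233). The DEN value was 0.37 ± 0.24 (adjusted p = 0.315) at day 28. The DEN call of day 84 was lost with normexp background correction (0.47, adjusted p = 0.0784), and without DEN rat 1 or 2 or any of the controls (0.68 to 0.73, adjusted p = 0.0505 to 0.0632).

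Of 10 other RGS genes tested, CCl4 raised 5 and lowered 1 at day 28 (26.1% and 33.6% of all genes). It raised 6 and lowered 2 at day 84 (28.0% and 36.3% of all genes). DEN raised 3 at day 28 (15.0% of all genes called), and raised 4 and lowered 2 at day 84 (21.6% and 31.1% of all genes). Rgs4, which was not well above background in any control, was higher with CCl4 by at least 20.6-fold (adjusted p = 1.68e-07) at day 28 and at least 22.9-fold (adjusted p = 3.94e-08) at day 84, and with DEN by at least 2.88-fold (adjusted p = 0.00172) and at least 5.95-fold (adjusted p = 1.65e-06). Rgs4 was tested only because it was bright in the treated groups, so these differences are in part a condition of the test. The DEN call of day 28 was lost with normexp background correction (0.48, adjusted p = 0.192). Its log2 level was -1.92, -2.16 and -2.13 with DEN at day 28, 0.33, 1.64 and 0.35 with CCl4 at day 28, -1.07, -1.32 and -1.19 with DEN at day 84 and 1.16, 0.47 and 0.64 with CCl4 at day 84. Rgs2 and Rgs10 rose with CCl4 at day 84 by 1.82 ± 0.18 (adjusted p = 1.92e-06) and 2.72 ± 0.19 (adjusted p = 1.10e-07).

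Cthrc1 encodes a secreted glycoprotein with a short collagen-like stretch, which fibroblasts that make matrix release. It was not well above background in any control or DEN rat of either day, and was well above it in all 6 CCl4 rats. Its log2 level with CCl4 was -2.25, 0.59 and -2.90 at day 28 and -0.22, -0.05 and -0.07 at day 84. In the controls it was measured at -5.65, -5.46 and -5.84, then -5.85, -5.75 and -5.66, and with DEN at -4.90, -5.49 and -5.68, then -6.06, -4.22 and -6.22. The CCl4 rats of day 84 lay within 0.17 of each other, whereas rat 2 of day 28 stood 2.84 above the next rat of its group. Cthrc1 was at least 4.21-fold higher with CCl4 than in controls (adjusted p = 0.000156) at day 28 and at least 12.6-fold higher (adjusted p = 9.87e-06) at day 84. Against DEN the bounds were 4.62-fold (adjusted p = 0.000537) and 16.6-fold (adjusted p = 6.58e-05). These adjusted p-values belong to the fitted differences, which use signals below the background limit, and not to the bounds. Since Cthrc1 was tested only through the CCl4 groups, these differences are in part a condition of the test.

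**Figure D3:**
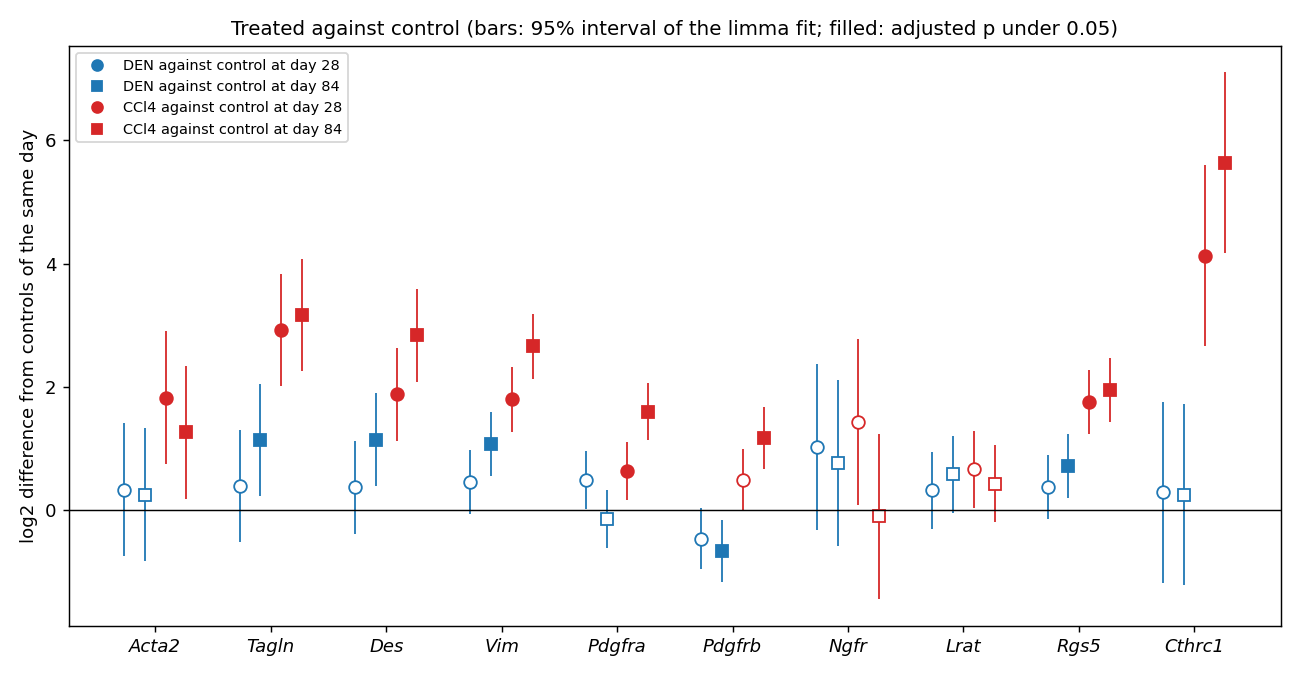
Log2 difference from the controls of the same day for the 10 genes, with DEN (blue) and CCl4 (red) at day 28 (circles) and day 84 (squares). Bars are 95% intervals of the limma fit, and filled symbols have an adjusted p under 0.05. At day 84 the CCl4 values of 8 genes run from 0.43 (Lrat) to 3.17 (Tagln). The controls of Cthrc1 and Ngfr were not well above background, so the fitted values of these genes are not measured folds.

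Most genes tested of the matrix that myofibroblasts secrete were higher with CCl4 at both days. Of 15 matrix genes tested, CCl4 raised 13 and lowered 1 at day 28 (median 1.83) and raised 14 and lowered 1 at day 84 (median 2.78). DEN raised 1 at day 28 (median 0.46), and raised 8 and lowered 1 at day 84 (median 0.83). The shares of all genes raised were 26.1% and 28.0% with CCl4 at day 28 and 84, and 21.6% with DEN at day 84. With DEN at day 28, 15.0% of all genes were called in either direction. Col1a1 and Col1a2, the chains of type I collagen, rose with CCl4 by 2.65 ± 0.37 (adjusted p = 3.71e-05) and 2.65 ± 0.30 (adjusted p = 7.94e-06) at day 28. At day 84 they rose by 3.10 ± 0.37 (adjusted p = 8.13e-06) and 3.47 ± 0.30 (adjusted p = 6.87e-07). With DEN at day 84, Col1a2 rose by 1.12 ± 0.30 (adjusted p = 0.00713), and Col1a1 stood at 0.54 ± 0.37 (adjusted p = 0.227). Timp1, an inhibitor of matrix proteases, was called in all 4 comparisons with controls, from 1.08 ± 0.26 (DEN, day 28, adjusted p = 0.0133, and 0.92 with adjusted p = 0.0674 without DEN rat 1) to 3.66 ± 0.26 (CCl4, day 84, adjusted p = 1.10e-07).

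TGF-beta is the main inducer of that matrix, and 13 genes of its pathway were tested. CCl4 raised 7 and lowered 2 at day 28 (26.1% and 33.6% of all genes) and raised 5 and lowered 3 at day 84 (28.0% and 36.3%). DEN raised 1 at day 28 (15.0% of all genes called), and raised 5 and lowered 3 at day 84 (21.6% and 31.1% of all genes). Of the ligands, Tgfb1 was called in all 4 comparisons, from 0.46 ± 0.12 (DEN, day 84, adjusted p = 0.00554) to 1.40 ± 0.12 (CCl4, day 84, adjusted p = 5.73e-07). Its DEN calls were lost with normexp background correction (0.26 at day 28 and 0.17 at day 84, adjusted p = 0.0527 and 0.0935), and the one of day 28 also without DEN rat 1 (0.47, adjusted p = 0.0569). Tgfb3 rose with CCl4 by 1.28 ± 0.23 (adjusted p = 0.000294) and 2.73 ± 0.23 (adjusted p = 4.86e-07) and with DEN stood at 0.21 ± 0.23 and 0.20 ± 0.23 (adjusted p = 0.554 and 0.484). Ltbp1, which tethers latent TGF-beta to the matrix, rose with CCl4 by 1.29 ± 0.23 (adjusted p = 0.000278) and 3.10 ± 0.23 (adjusted p = 1.87e-07) and with DEN at day 84 by 1.01 ± 0.23 (adjusted p = 0.00235).

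**Figure D4:**
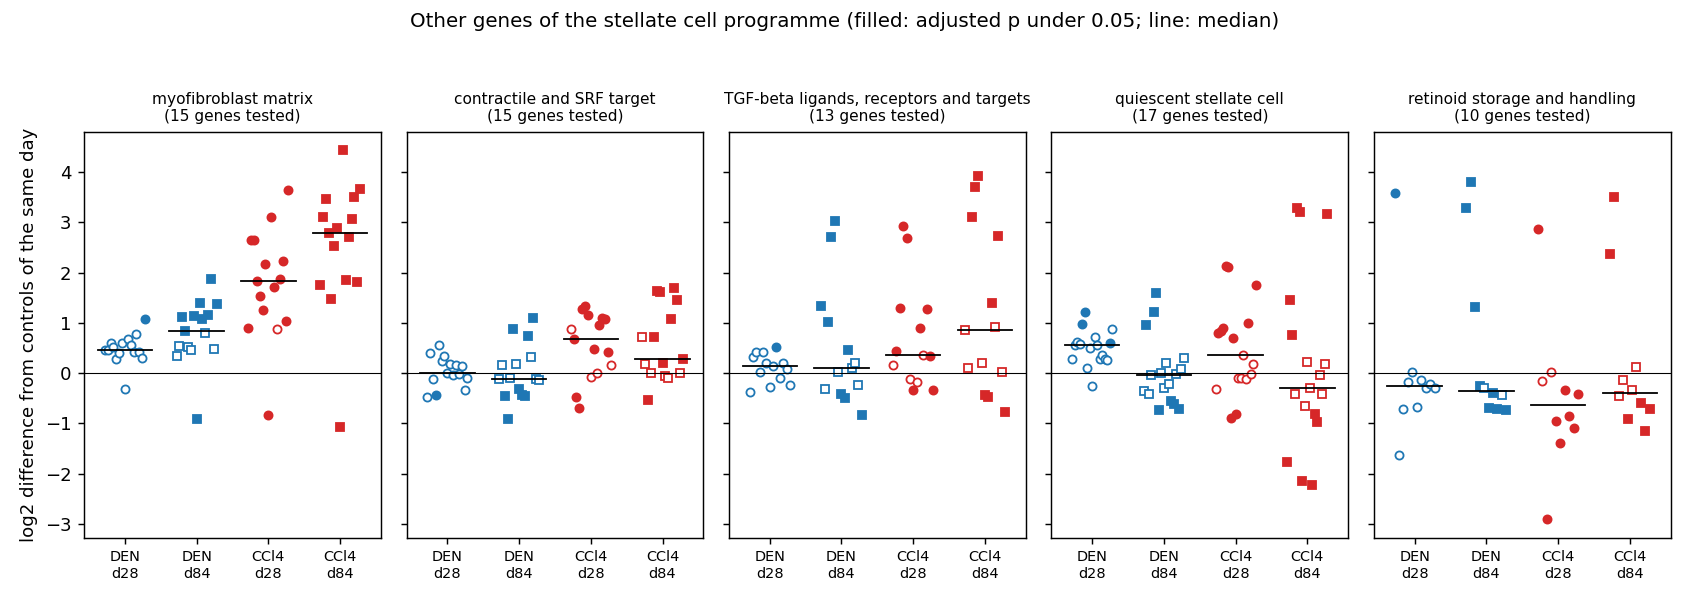
Log2 difference from the controls of the same day for 5 lists of further genes, with DEN (blue) and CCl4 (red) at day 28 (circles) and day 84 (squares). The lists are named for traits of stellate cells, but not all their genes are particular to these cells (Rbp4 is made by hepatocytes). Each symbol is 1 gene, filled where its adjusted p was under 0.05, and the black line is the median. The matrix list has medians of 1.83 and 2.78 with CCl4, and the retinoid list lies below 0 in the median in all 4 comparisons (spike-in scaling turns these medians above 0).

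The difference between the compounds was tested directly. CCl4 exceeded DEN in 7 of 10 genes at each day, Tagln, Des, Vim, Pdgfrb, Rgs5 and Cthrc1 at both, Acta2 at day 28 and Pdgfra at day 84 (20.4% and 18.5% of all genes were called higher with CCl4), and none was lower. The calls of Cthrc1, which was tested only through the CCl4 groups, are in part a condition of the test. At day 84 the differences were 2.03 ± 0.42 (adjusted p = 0.00241) for Tagln, 1.69 ± 0.35 (adjusted p = 0.00238) for Des, 1.58 ± 0.24 (adjusted p = 0.000283) for Vim, 1.74 ± 0.22 (adjusted p = 5.96e-05) for Pdgfra and 1.24 ± 0.24 (adjusted p = 0.00155) for Rgs5. Within the second slide alone, which holds only CCl4 rat 1, Tagln stood at 1.93 (adjusted p = 0.0598). Acta2 at day 84 differed by 1.02 (95% interval -0.06 to 2.10, adjusted p = 0.136), although every CCl4 rat lay above every DEN rat. Lrat differed by -0.15 (-0.77 to 0.48, adjusted p = 0.724) at day 84, and this interval includes 0 and sizable differences both. Ngfr was well above background on 1 of 3 DEN arrays and none of the CCl4 arrays of day 84 and did not pass the test (adjusted p = 0.309).

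The effect of CCl4 at day 84 was set against that at day 28. None of the 10 genes passed this test (6.02% of all genes did), and 2, Vim and Pdgfra, had an unadjusted p under 0.05. This count rested on CCl4 rat 2 of day 28, which was singled out after the data were seen. It was the highest of its group in 9 of the 10 genes, so leaving it out lowers the day 28 effect of those genes. The 6.02% belongs to the fit of all arrays, and the share of all genes passing without that rat is not given here. Without that rat 5 genes passed, with larger effects at day 84: Cthrc1 (adjusted p = 0.0157, with no measured size since its controls were not well above background), Des by 1.43 (adjusted p = 0.0271), Vim by 1.25 (adjusted p = 0.00162), Pdgfra by 1.19 (adjusted p = 0.0159) and Pdgfrb by 0.98 (adjusted p = 0.0325). Without CCl4 rat 2 of day 84 Pdgfra passed (1.15, adjusted p = 0.0481). Tagln and Acta2 stood at 0.77 (adjusted p = 0.336) and -0.20 (adjusted p = 0.886) without rat 2 of day 28. None of the calls for CCl4 against controls at day 28 other than that of Pdgfra was lost without it.

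The change in the DEN effect between the days passed the test in none of the 10 genes either (16.1% of all genes called, 0 of the 10 with an unadjusted p under 0.05). The gap between CCl4 and DEN widened for Pdgfra, which differed by 0.15 ± 0.22 (adjusted p = 0.612) at day 28 and by 1.74 at day 84, a change of 1.59 ± 0.31 (adjusted p = 0.00412; 10.2% of all genes called in this direction). Without CCl4 rat 2 of day 28 this change was 1.82 (adjusted p = 0.00115). Pdgfrb and Vim (1.18 and 0.63, adjusted p = 0.0108 and 0.0332) and Cthrc1 (adjusted p = 0.0113) then passed as well. The 10.2% belongs to the fit of all arrays, and the share without that rat is not given here. The controls of day 84 differed from those of day 28 in none of the 10 genes (9.76% of all genes called, 0 of the 10 with an unadjusted p under 0.05). All controls of day 28 lay on the first slide and all those of day 84 on the second, so day and slide cannot be told apart in the controls.

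Some markers of other cell types were called as well, among them some in a group where none of the 10 genes was. The counts stand beside these shares of all genes: CCl4 raised 26.1% and lowered 33.6% at day 28, and 28.0% and 36.3% at day 84. With DEN, 15.0% were called at day 28, and 21.6% were raised and 31.1% lowered at day 84. The counts for macrophages and sinusoidal endothelium include some near these shares. The mean level of 8 bile duct markers was -2.77 to -2.45 in controls and -1.34 to -0.13 with CCl4 at day 28, and -2.96 to -2.30 in controls, -1.53 to -0.55 with DEN and -0.24 to 0.14 with CCl4 at day 84. CCl4 raised 5 of them at day 28 and 7 at day 84, and DEN raised 6 at day 84. Of 9 lymphocyte markers 5 rose with CCl4 at each day, and their mean level went from between -1.89 and -1.43 in controls to between -1.02 and -0.72 at day 28. DEN also raised 5 lymphocyte markers at day 28, where it called none of the 10 genes (mean level -1.06 to -0.75), and raised 1 and lowered 1 at day 84. Of 13 macrophage markers CCl4 raised 3 and lowered 7 at day 28 and raised 5 and lowered 5 at day 84: Gpnmb rose by 3.42 ± 0.18 (adjusted p = 1.10e-08) and 3.51 ± 0.18 (adjusted p = 9.76e-09), and Cd163 fell by 0.89 ± 0.24 (adjusted p = 0.00602) and 1.02 ± 0.24 (adjusted p = 0.00215). Of 7 markers of sinusoidal endothelium CCl4 raised none and lowered 2 and 3. All 10 hepatocyte markers fell with CCl4 at day 28 and 9 at day 84 (median -0.99 and -0.60, and -0.19 and -0.05 under spike-in scaling). Vim is made by several of these cell types. The part of the other cells in the levels of the 10 genes was not tested.

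Portal fibroblasts and vascular smooth muscle share Acta2, Tagln, Des and Pdgfrb with stellate cells. Of 8 markers of these cells tested, CCl4 raised 5 and lowered 1 at day 28 (26.1% and 33.6% of all genes). CCl4 raised 5 at day 84 (28.0% of all genes), and DEN raised 4 at day 84 (21.6%). Their mean level was -0.32 to 0.21 in controls, -0.13 to 0.16 with DEN and 0.26 to 0.81 with CCl4 at day 28, and -0.41 to -0.11, 0.12 to 0.38 and 0.97 to 1.15 at day 84. Eln, the elastin gene, rose with CCl4 by 3.20 ± 0.24 (adjusted p = 2.22e-07) at day 84, Entpd2, an ectonucleotidase of portal fibroblasts, by 1.51 ± 0.25 (adjusted p = 0.000139) and Mcam, a cell adhesion molecule of pericytes and endothelium, by 1.75 ± 0.21 (adjusted p = 7.47e-06). Msln, the mesothelin gene, rose by 2.80 ± 0.42 (adjusted p = 5.91e-05). Thy1 and Cd34 were not well above background in any whole group. The part of these cells in the result was not tested.

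The pattern of each gene over the 18 arrays was compared with that of every other tested gene, by the root mean square difference between levels centred on their mean. The nearest genes were Aebp1 (0.21) and Phldb1 (0.21) for Des, Phldb1 (0.18) and Emp3 (0.18) for Vim, Mmp23 (0.34) and Col1a2 (0.37) for Tagln, and Pkm (0.17) and Kazald1 (0.19) for Rgs5. For comparison, the SD of these 4 genes themselves over the arrays was 1.11, 1.01, 1.42 and 0.85. Pdgfra was nearest to Clec2l (0.14) and Ccdc80 (0.17), Pdgfrb to Arid5a (0.30) and Hist3h2ba (0.32), Lrat to Reln (0.25) and Adora2a (0.27) and Cthrc1 to Lypd1 (0.64) and Lcn2 (0.77). Acta2 (Zfp367 at 0.40 and Ripply3 at 0.47) and Ngfr (P2ry13 at 0.69 and Fam167a at 0.69) had own SDs of 0.90 and 0.98, and Lrat one of 0.50. These distances describe 18 arrays that share 6 groups and carry no test.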

How the data were processed

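Per the labels, Cy3-labelled liver RNA was measured on one-colour Agilent arrays. Per the file headers, the scanner software was Feature Extraction (version 10.7.1.1). The authors deposited its intensity values: processed signals, already corrected for background, and medians of spot and local background. The value table the authors deposited holds a linear ratio, each processed signal divided by a constant of its array (100% of probes within 0.01 log2). Processed signals were put on a log2 scale here, minus each array's 75th percentile. Of 61537 probes, 28193 matched 1 RefSeq gene, and 33344 were not used here. Control spots (1439) and 18 outlier probes were left out, and 0 probes were saturated. A probe passed the filter if some group had all 3 of its arrays well above background (33790 probes, with or without a matched gene). Of those with a matched gene, 1 was used per gene (10908 genes). limma 3.58.1 in R 4.3.3 fitted a mean per group (lmFit and eBayes, 12 residual degrees of freedom), with Benjamini-Hochberg adjustment over all genes at 0.05. It was tested on simulated data. With 3 rats per group, their number limits the precision.

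Where a probe was above background on no array of a group, differences are bounds. An adjusted p-value beside a bound is that of the fitted difference, which uses the signals below the background limit. The 10 genes and the lists were chosen with earlier results of these data known. Named beside them were the first 2 measured genes of each list, its up to 3 called genes with the smallest adjusted p, and the 2 nearest genes; some genes this rule names are not reported here. Alternatives covered background correction, scaling, filters, probe choice, blocks, slides and left-out arrays. A block for the replicate number was an alternative only, since the labels tie the numbers to nothing. Deviations of same-numbered control and treated rats correlated at -0.05 to 0.13. Plots were drawn with matplotlib 3.10.9 in Python 3.11.15, pandas 2.3.3 and numpy 2.4.6 prepared them, and R read tables with version 1.17.8 of its data.table package.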

Additional observations from a re-analysis of the deposited data

Results flagged for a closer look

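The difference between CCl4 and DEN in the level of Pdgfra, the alpha receptor of platelet-derived growth factor, was not the same at both days. It was 0.15 ± 0.22 at day 28 and 1.74 ± 0.22 at day 84, and the change between the days, 1.59 ± 0.31 (limma, adjusted p = 0.00412), passed the test of the difference itself. Groups of 3 rats are too small for the test of single outlying rats, which was not run.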

How the results depend on the processing

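The counts of called genes among the 10 for CCl4 against control and CCl4 against DEN stayed within 1.5 times those reported under all alternatives. Other counts moved. For DEN at day 84, 5 became 3 with normexp background correction and 2 to 4 when single arrays were left out. For DEN at day 28, 0 became 2 with spike-in scaling and 1 with only the groups compared. The change of the DEN effect between days went from 0 to 2 with only the groups compared. The change of the CCl4 effect went from 0 to 0 to 5 when single arrays were left out. The change of CCl4 against DEN went from 1 to 2 with normexp background correction and to 1 to 4 when single arrays were left out. The shares of all genes called under each alternative are not given here, so these counts cannot be set beside them. The cause of these moves was not tested.

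With a replicate block, Acta2 with CCl4 at day 84 was lost (adjusted p = 0.0529) and Ngfr with CCl4 at day 28 was gained (adjusted p = 0.0462), and no other call of the 10 genes changed. The labels do not say that the numbers pair the rats. Deviations of same-numbered control and treated rats correlated at -0.05 to 0.13, and whether the numbers pair the rats was not tested. Leaving out CCl4 rat 2 of day 28 was also run as an alternative named after the data were seen, as was reading Lrat and Pdgfrb from their other probe.

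Signs changed in the following cases, in which the value reported, the alternative or both were called. Spike-in scaling gave 0.038 for Pdgfrb, 0.40 for Dhrs3 and 0.69 for Reln with DEN at day 84. Normexp background correction gave -0.32, -0.23 and -0.013 for Pdgfc (CCl4 at day 28, CCl4 at day 84, DEN at day 28) and -0.44 and -0.33 for Tgfb2 (CCl4 at day 28, DEN at day 84). Some of these had no clear direction to reverse, with both signs when single arrays were left out. With DEN at day 84 these were Reln (-0.047 to 0.019) and Tgfb2 (-0.15 to 0.32). With CCl4 at day 28 they were Pdgfc (-0.13 to 0.22) and Tgfb2 (-0.26 to 0.94). The mean of all probes gave 0.086 and 0.030 for Lmnb1 with CCl4 and DEN at day 28. The cause was not tested. Cthrc1 and Ngfr lay below the background limit in whole groups, so their differences there are bounds.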
